A study of Mus musculus with 42 samples.

Results

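Steroid hormones are built from cholesterol by a short chain of proteins, and 10 genes of that chain were followed here through every group of an RNA-seq series on bisphenol S (BPS), a replacement for bisphenol A in plastics that is classed as an endocrine disruptor. The genes were chosen by symbol, with earlier results of these data known. They were Scarb1, Star and Tspo for cholesterol delivery, Cyp11a1 and Fdx1 for the first cut of the cholesterol side chain, and Hsd3b1, Cyp17a1, Cyp19a1, Hsd17b1 and Srd5a1 for the later steps. Of these, 9 had a row in the table of 22186 genes and 42 libraries, and Cyp19a1, which encodes the aromatase that makes estrogens, was not analysed here. Steroid synthesis begins when cholesterol is carried to the inner mitochondrial membrane and is cleaved there to pregnenolone. In the ovary, theca cells turn pregnenolone into androgens and granulosa cells turn androgens into estrogens and, after luteinization, make progesterone. In the testis, Leydig cells make the androgens, and Sertoli cells support germ cells and respond to follicle-stimulating hormone and testosterone.

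The series held 14 groups of 3 libraries each. Sertoli and granulosa cells, the main groups here, were primary cultures from mice at postnatal day 20, Sertoli cells from a pooled digest of littermate testes and granulosa cells from preantral follicles of littermate ovaries, and each was exposed to 1 µM BPS or to ethanol vehicle. The other groups were induced pluripotent stem cells (iPSCs) of a dose series (vehicle, 1, 50 and 100 µM BPS), iPSCs of a propagation experiment (1 µM BPS or vehicle), primordial germ cell-like cells (PGCLCs) made from those iPSCs and not exposed again, and PGCLCs exposed directly to 1 µM BPS or to vehicle. All iPSCs came from 1 male line reprogrammed from embryonic fibroblasts with a doxycycline-inducible cassette of 4 factors, and PGCLCs were sorted for the surface proteins FUT4 and ITGB3. Exposure lasted 24 h and was followed by 24 h in clean medium, or by 8 h for the directly exposed PGCLCs. The 3 libraries of a group came from separate flasks of 1 cell pool or 1 cell line. PGCLC libraries came from separate batches of plates, all grown from the 1 iPSC line. Every p-value thus measured the spread between these cultures and not between animals.

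The libraries held between 26693847 and 44524376 reads in genes. Levels are given as CPM, the reads of a gene scaled to a common library total, and a difference was called when limma's p-value, adjusted by Benjamini and Hochberg over all genes tested in that comparison, was at most 0.05. Genes entered a test with at least 0.5 CPM in at least 3 libraries. The labelled cell types were checked against marker lists. The 10 Sertoli markers summed to 3632 to 3992 CPM in BPS-exposed and 3909 to 3936 CPM in vehicle Sertoli cultures, against 102 to 105 CPM in BPS-exposed and 91.9 to 98.4 CPM in vehicle granulosa cultures. The 9 granulosa markers summed to 2937 to 3049 CPM in BPS-exposed and 2910 to 2999 CPM in vehicle granulosa cultures, against 372 to 480.5 CPM in the 6 Sertoli libraries. Fshr, the follicle-stimulating hormone receptor of both cell types, was low in both, at 3.31 to 4.67 CPM in the Sertoli libraries and 0.324 to 0.615 CPM in the granulosa libraries, and the Sertoli marker Rhox5 stood at 0.276 to 0.558 CPM in the Sertoli libraries. The Leydig list shares Hsd3b6, Hsd17b3 and Lhcgr with the pathway lists used below. The granulosa list shares Foxl2, Nr5a2 and Fshr with them, and the Sertoli list Fshr. The Leydig list summed to at most 0.942 CPM in any Sertoli library, with Lhcgr at 0 reads in all of them. Markers of stroma, theca and peritubular cells were high in both. They summed to 3883 to 4169 CPM in BPS-exposed and 3625 to 3727 CPM in vehicle granulosa cultures, above the granulosa list. In Sertoli cultures they summed to 1715 to 1756 and 1810 to 1930 CPM. Sums over different genes do not give shares of cells, and the part of such cells in the results was not tested.

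The genes fell into 3 kinds by their levels in the somatic cells, as the plot of each library shows. Scarb1 and Star were high and close together in Sertoli and granulosa cells, Tspo was higher in Sertoli cells, and the enzymes Cyp11a1, Hsd3b1 and Hsd17b1 were high in granulosa cells and low in Sertoli cells. Fdx1 and Srd5a1 were also higher in granulosa cells, by about 2-fold, and Cyp17a1 was near 0 throughout. In bulk cultures, fewer cells of a type and less RNA per cell cannot be told apart, and this holds for each result that follows.

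**Figure D1:**
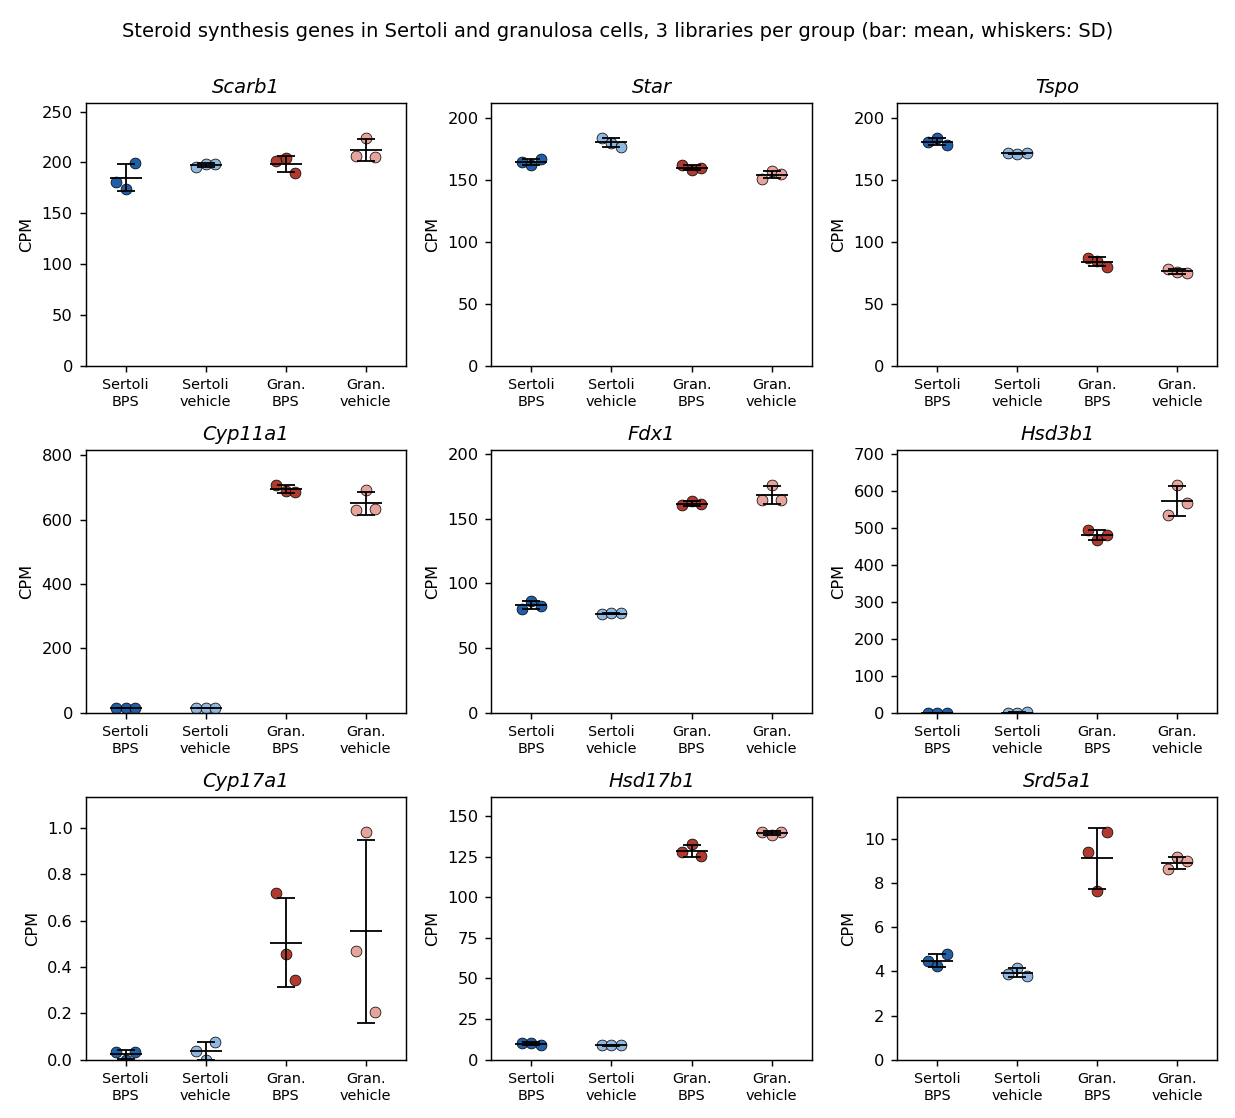
CPM of the 9 genes in each library of the Sertoli and granulosa groups, with 3 points per group, the mean as a bar and the SD as whiskers; each vertical axis starts at 0 and has its own range. Hsd3b1 sits between 467 and 618 CPM in granulosa cells and below 1 CPM in Sertoli cells, while Star sits between 151 and 184 CPM in all 12 libraries.

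Start regions were looked up in RefSeq (build GRCm38.p6) for all 10 genes, from 250 bases before to 50 bases after an annotated start. Cyp11a1, Fdx1, Hsd3b1, Cyp19a1 and Srd5a1 had such regions, 5 of the 10 genes. The regions of Cyp11a1, Hsd3b1 and Fdx1 are printed because both enzymes were high in granulosa cells and varied together over the libraries, and because Fdx1 feeds electrons to the Cyp11a1 enzyme. Capitals mark every match to 4 short motifs searched on both strands: AAGGTCA, bound by NR5A1 and NR5A2, which also contains the next one; GGTCA, the core of the estrogen response element; TGACG, the core of the cyclic AMP response element; and AGATAA, bound by GATA factors.
Cyp11a1, first start, chr9:57997774-57998073, plus strand: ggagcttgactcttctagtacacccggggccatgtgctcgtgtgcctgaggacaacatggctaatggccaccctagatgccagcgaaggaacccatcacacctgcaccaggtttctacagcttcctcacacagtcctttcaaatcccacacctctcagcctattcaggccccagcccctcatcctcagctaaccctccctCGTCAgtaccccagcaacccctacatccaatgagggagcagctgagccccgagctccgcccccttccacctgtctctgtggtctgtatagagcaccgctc
Cyp11a1, second start, chr9:58014702-58015001, plus strand: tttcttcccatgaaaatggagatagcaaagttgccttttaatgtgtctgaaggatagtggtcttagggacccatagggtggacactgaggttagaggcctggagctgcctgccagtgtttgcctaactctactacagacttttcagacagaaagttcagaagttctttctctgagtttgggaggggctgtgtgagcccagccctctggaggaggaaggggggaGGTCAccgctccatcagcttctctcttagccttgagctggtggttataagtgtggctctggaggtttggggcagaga
Hsd3b1, chr3:98859745-98860044, minus strand: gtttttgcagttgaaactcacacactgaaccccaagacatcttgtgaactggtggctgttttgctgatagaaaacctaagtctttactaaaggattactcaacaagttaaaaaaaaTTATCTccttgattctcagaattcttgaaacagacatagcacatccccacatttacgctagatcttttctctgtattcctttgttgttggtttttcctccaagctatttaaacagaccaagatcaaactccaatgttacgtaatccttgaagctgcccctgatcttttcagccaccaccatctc
Fdx1, chr9:51963553-51963852, minus strand: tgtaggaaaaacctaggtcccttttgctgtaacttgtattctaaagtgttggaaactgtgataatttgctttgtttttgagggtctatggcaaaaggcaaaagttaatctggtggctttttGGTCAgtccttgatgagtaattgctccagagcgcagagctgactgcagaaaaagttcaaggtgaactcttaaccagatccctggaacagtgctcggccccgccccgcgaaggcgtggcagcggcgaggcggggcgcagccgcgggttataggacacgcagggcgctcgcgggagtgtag
The first Cyp11a1 region held TGACG on its minus strand, the second held GGTCA, the Hsd3b1 region held AGATAA on its minus strand and the Fdx1 region held GGTCA. None of the 4 regions held AAGGTCA. Among 32851 RefSeq start regions of the same length, 4.72% held AAGGTCA, 40.5% GGTCA, 20.8% TGACG and 11.2% AGATAA. These matches describe the letters only.

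The comparison of Sertoli with granulosa cells asked where each gene of the chain was expressed. Cell type, sex, medium and litter all differed between these cultures and cannot be told apart. In vehicle cultures all 8 tested genes were called, among them Hsd3b1, which entered the test through its granulosa level alone, with 2 higher and 6 lower in Sertoli cells. Of all genes tested, 78.7% were called in that comparison, 38.1% higher and 40.6% lower in Sertoli cells, so a call by itself was the usual outcome. In BPS-exposed cultures 7 of the 8 were called, 1 higher and 6 lower, where 79.3% of all genes were called, 38.3% higher and 41% lower. The genes' median log2 difference was -1.15 in vehicle and -0.98 in BPS-exposed cultures, against -0.03 over all genes in each.

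Cyp11a1 encodes the side-chain cleavage enzyme that turns cholesterol into pregnenolone (chromosome 9, 57998024 to 58027031, plus strand, GRCm38). BPS-exposed Sertoli cultures had 14.3, 15.3 and 14.5 CPM of Cyp11a1 and vehicle Sertoli cultures 15.4, 13.4 and 15.6 CPM. BPS-exposed granulosa cultures had 708, 689 and 687 CPM and vehicle granulosa cultures 628, 691 and 632 CPM. The cell types did not overlap, and within each cell type the BPS and vehicle libraries did. Cyp11a1 was 44.0-fold lower in Sertoli than in granulosa cells with vehicle (log2 difference -5.46, SE 0.056, limma adjusted p = 9.45e-16) and 47.2-fold lower with BPS (-5.56, adjusted p = 5.69e-22). Its BPS effect was not called in Sertoli cells (log2 difference -0.005, 95% interval -0.16 to 0.15, adjusted p = 0.979) or in granulosa cells (0.10, 0.03 to 0.16, adjusted p = 0.116). Without vehicle replicate 2, its highest vehicle library, the granulosa difference was called at 0.14 with an adjusted p of 0.0069. By its read counts over many genes, this was the library least like the others of its group.

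Fdx1 encodes ferredoxin, the mitochondrial electron donor of the side-chain cleavage enzyme (chromosome 9, 51943023 to 51963602, minus strand). BPS-exposed Sertoli cultures had 80.5, 86.3 and 82.4 CPM of Fdx1, against 76.1, 76.7 and 76.7 CPM with vehicle. BPS-exposed granulosa cultures had 160.3, 163 and 161 CPM, against 164, 176 and 164 CPM with vehicle. The BPS libraries thus lay above all vehicle libraries in Sertoli cells and below all of them in granulosa cells. Neither difference was called (Sertoli 0.12, SE 0.038, limma adjusted p = 0.0729; granulosa -0.06, SE 0.030, adjusted p = 0.388). Fdx1 was 2.20-fold lower in Sertoli than in granulosa cells with vehicle (log2 difference -1.14, adjusted p = 6.97e-12) and 1.95-fold lower with BPS (-0.96, adjusted p = 1.28e-13).

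Hsd3b1 encodes the dehydrogenase that converts pregnenolone to progesterone (chromosome 3, 98842356 to 98859794, minus strand). In granulosa cells it had 494, 467 and 481 CPM with BPS, against 535, 618 and 567 CPM with vehicle. All 3 BPS libraries lay below all 3 vehicle libraries, and the vehicle libraries spread more widely. The highest was vehicle replicate 2, the library least like the others of its group. With 1 library left out, the log2 difference ranged from -0.30 to -0.20 and stayed called (limma adjusted p at most 0.0083). Hsd3b1 fell in BPS-exposed granulosa cells, to 480.6 ± 13.8 CPM against 573.5 ± 41.4 CPM with vehicle (SD, n = 3 each), a log2 difference of -0.25 (SE 0.037, limma adjusted p = 0.000882). In Sertoli cells it had 0.454, 0.486 and 0.351 CPM with BPS and 0.260, 0.449 and 0.886 CPM with vehicle, from 7 to 23 reads per library, and it was not tested there. With vehicle it was 1079-fold lower in Sertoli than in granulosa cells (log2 difference -10.15, SE 0.288) and with BPS 1117-fold lower (-10.04, SE 0.093). It passed the filter only through its granulosa level, so it had to differ and these values are a description. Of its 50-base stretches, 4.98% also occurred in other genes, among them its neighbours Hsd3b2, Hsd3b3 and Hsd3b6, so a small part of its count is uncertain.

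Hsd17b1 encodes the dehydrogenase that converts estrone to estradiol (chromosome 11, 101077968 to 101081188, plus strand). In granulosa cells it had 128, 133 and 125 CPM with BPS, against 140.1, 138 and 140.3 CPM with vehicle. The groups did not overlap, and the 3 vehicle libraries lay within 3 CPM of each other. Hsd17b1 fell in BPS-exposed granulosa cells by a log2 difference of -0.12 (SE 0.029, limma adjusted p = 0.0363), a mean of 129 ± 3.70 CPM against 139 ± 1.29 CPM (SD, n = 3 each). This call was lost when any library other than BPS replicate 2 was left out: without vehicle replicates 1, 2 and 3 the adjusted p was 0.0724, 0.0513 and 0.139, and without BPS replicates 1 and 3 it was 0.134 and 0.139. In Sertoli cells Hsd17b1 had 10.4, 10.4 and 9.06 CPM with BPS and 8.76, 9.19 and 8.93 CPM with vehicle, and the groups overlapped (log2 difference 0.15, SE 0.088, adjusted p = 0.354). It was 15.6-fold lower in Sertoli than in granulosa cells with vehicle (log2 difference -3.96, SE 0.040, adjusted p = 9.01e-16) and 12.9-fold lower with BPS (-3.69, SE 0.054, adjusted p = 3.94e-18).

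Cyp17a1 encodes the enzyme that makes androgens from progestins and marks theca and Leydig cells (chromosome 19, 46667165 to 46673000, minus strand). It had 0.718, 0.456 and 0.343 CPM in BPS-exposed granulosa cultures and 0.471, 0.984 and 0.205 CPM in vehicle granulosa cultures, from 53 and 54 reads in all. The Sertoli cultures held 2 reads with BPS and 3 with vehicle. Cyp17a1 passed the filter in no comparison and was not tested.

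Srd5a1 encodes a steroid 5-alpha-reductase, which reduces testosterone and progesterone (chromosome 13, 69573449 to 69611485, minus strand). BPS-exposed Sertoli cultures had 4.47, 4.22 and 4.78 CPM of Srd5a1, against 3.90, 4.15 and 3.77 CPM with vehicle. BPS-exposed granulosa cultures had 9.38, 7.62 and 10.3 CPM, against 8.63, 9.16 and 8.98 CPM with vehicle. The BPS libraries lay above the vehicle libraries in Sertoli cells and on both sides of them in granulosa cells, and neither difference was called (0.19, limma adjusted p = 0.408; 0.02, adjusted p = 0.949). Srd5a1 was 2.27-fold lower in Sertoli than in granulosa cells with vehicle (log2 difference -1.17, SE 0.095, adjusted p = 1.71e-07) and the log2 difference with BPS was -1.01 (adjusted p = 9.74e-07). It shares 16.5% of its 50-base stretches with Gm17108, which overlaps its exons by 476 bases on the same strand, so its level is uncertain.

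Star encodes the protein that moves cholesterol to the inner mitochondrial membrane, the regulated first step of the chain (chromosome 8, 25808474 to 25815982, plus strand). BPS-exposed Sertoli cultures had 164, 162 and 167 CPM of Star, against 184, 179.5 and 177 CPM with vehicle. BPS-exposed granulosa cultures had 162, 158 and 159 CPM, against 151, 157 and 155 CPM with vehicle. BPS libraries were the lower 3 in Sertoli cells and the higher 3 in granulosa cells. Star fell in BPS-exposed Sertoli cells to 164 ± 2.39 CPM, against 180.0 ± 3.69 CPM with vehicle (SD, n = 3 each), by a log2 difference of -0.13 (SE 0.032, limma adjusted p = 0.0251). In granulosa cells the difference was 0.05 (95% interval -0.01 to 0.11, adjusted p = 0.398) and was not called. The Sertoli call was lost without vehicle replicate 2, BPS replicate 1 or BPS replicate 2, with adjusted p-values of 0.102, 0.107 and 0.106.

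The Star result came with a shift in other cell markers. Germ cell markers summed to 13.9 to 19.0 CPM in BPS-exposed and 22.0 to 24.6 CPM in vehicle Sertoli cultures. Markers of stroma, theca and peritubular cells, 9 genes each measured in every somatic library, summed to 1715 to 1756 CPM in BPS-exposed and 1810 to 1930 CPM in vehicle Sertoli cultures. The PGCLC list summed to 47.2 to 49.2 CPM in BPS-exposed and 52.96 to 57.5 CPM in vehicle Sertoli cultures. None of the 3 lists overlapped between BPS and vehicle, and their part in the Star result was not tested. More lists were summed than these 3, and the share of all genes without overlap was not counted. The Sertoli list overlapped (3632 to 3992 CPM with BPS and 3909 to 3936 CPM with vehicle). The granulosa list (372 to 424 and 420 to 480.5 CPM), the Leydig list and the macrophage list overlapped too. Between cell types, Star was higher in Sertoli than in granulosa cells with vehicle (log2 difference 0.22, SE 0.029, limma adjusted p = 1.31e-05) and not called with BPS (0.04, 95% interval -0.02 to 0.10, adjusted p = 0.174). With BPS the direction depended on the scaling, at 0.066 and called with median ratios (adjusted p = 0.0333) and at -0.060 and not called with the upper quartile (adjusted p = 0.0523).

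Tspo encodes a cholesterol-binding protein of the outer mitochondrial membrane (chromosome 15, 83563573 to 83574203, plus strand). BPS-exposed granulosa cultures had 87.2, 84.7 and 80.1 CPM of Tspo, against 78.4, 75.7 and 74.6 CPM with vehicle. BPS-exposed Sertoli cultures had 181, 184 and 178 CPM, against 172.0, 172 and 172 CPM with vehicle. BPS libraries lay above all vehicle libraries in both cell types. Tspo rose in BPS-exposed granulosa cells, to 84.0 ± 3.60 CPM against 76.2 ± 1.93 CPM with vehicle (SD, n = 3 each), a log2 difference of 0.14 (SE 0.036, limma adjusted p = 0.0419). The Sertoli difference of 0.08 was not called (SE 0.031, adjusted p = 0.156). The granulosa call was lost without vehicle replicates 2 or 3 (adjusted p = 0.0788 and 0.185) or BPS replicates 1 or 2 (0.219 and 0.13), and with libraries rescaled by median ratios (0.0799) or upper quartile (0.0747). Tspo was 2.26-fold higher in Sertoli than in granulosa cells with vehicle (log2 difference 1.17, SE 0.029, adjusted p = 1.56e-12) and 2.16-fold higher with BPS (1.11, adjusted p = 4.06e-14).

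Scarb1 encodes the receptor that takes up cholesteryl esters from high-density lipoprotein (chromosome 5, 125277087 to 125341094, minus strand). BPS-exposed Sertoli cultures had 181, 174 and 199.9 CPM of Scarb1, against 195, 199 and 198 CPM with vehicle. BPS-exposed granulosa cultures had 201, 205 and 189 CPM, against 206, 224 and 205 CPM with vehicle. The groups overlapped in Sertoli cells through BPS replicate 3 and did not in granulosa cells, where the nearest BPS and vehicle libraries were close together. The log2 difference was -0.10 in Sertoli cells (SE 0.041, limma adjusted p = 0.165) and -0.09 in granulosa cells (SE 0.035, adjusted p = 0.188), and neither was called. Without BPS replicate 3 the Sertoli difference was -0.16 and was called (adjusted p = 0.0175). Between cell types Scarb1 was lower in Sertoli cells by a log2 difference of -0.10 with vehicle (adjusted p = 0.0198) and -0.10 with BPS (adjusted p = 0.0421). The first of these was not called without granulosa vehicle replicate 2 (adjusted p = 0.11), the second without Sertoli BPS replicates 1 or 2 (0.114 and 0.216) or granulosa BPS replicates 1 or 2 (0.1 and 0.141), and neither with median-ratio scaling (0.0514 and 0.108).

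**Figure D2:**
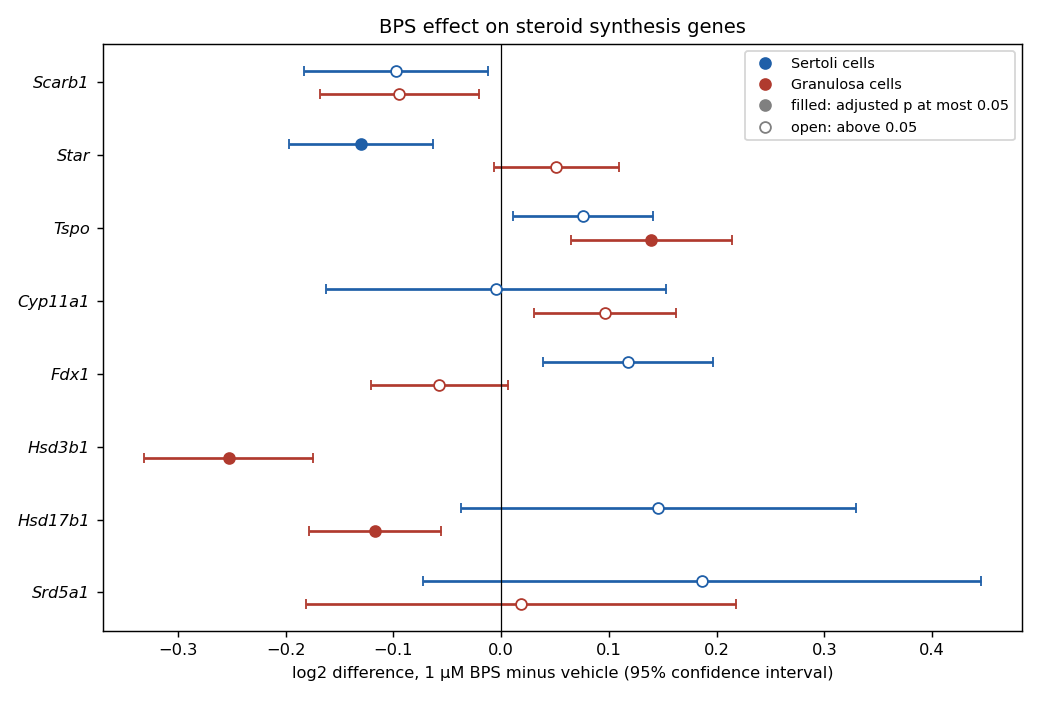
Log2 difference of 1 µM BPS minus vehicle for 8 genes in Sertoli and granulosa cells, with 95% confidence intervals from 3 libraries per group; filled points have a limma adjusted p of at most 0.05. Star in Sertoli cells (-0.13) and Tspo (0.14), Hsd3b1 (-0.25) and Hsd17b1 (-0.12) in granulosa cells are filled, and Hsd3b1 has no Sertoli point because it was not tested there.

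By cell type, the BPS comparison called 1 of the 7 tested genes in Sertoli cells (Star, lower) where 5.24% of all genes were called. It called 3 of the 8 in granulosa cells (Tspo higher, Hsd3b1 and Hsd17b1 lower) where 2.6% of all genes were called. At an unadjusted p under 0.05 there were 4 of the 7 in Sertoli cells, against 3425 of all 15648 genes. In granulosa cells there were 5 of the 8, against 2412 of all 15712 genes. The genes were chosen with earlier results of these data known, so their counts against all genes are a description. The genes' median log2 difference was 0.08 in Sertoli cells and -0.02 in granulosa cells, against 0.01 and 0.02 over all genes. In mean CPM, Star fell by 8.64% in BPS-exposed Sertoli cells. In BPS-exposed granulosa cells Tspo was 10.2% higher, Hsd17b1 fell by 7.77% and Hsd3b1 fell by 16.2%. Beside the granulosa calls, the stroma, theca and peritubular markers summed to 3883 to 4169 CPM in BPS-exposed and 3625 to 3727 CPM in vehicle cultures, with no overlap. The Sertoli markers, at 102 to 105 CPM with BPS and 91.9 to 98.4 CPM with vehicle, and the PGCLC list, at 28.7 to 31.6 and 33.7 to 39.4 CPM, did not overlap either, while the granulosa markers did (2937 to 3049 and 2910 to 2999 CPM). Leydig markers summed to 2.70 to 3.21 CPM with BPS and 2.80 to 4.12 CPM with vehicle, and macrophage markers to 19.3 to 25.1 and 20.8 to 25.6 CPM. Other lists were summed as well, and the share of all genes without overlap was not counted. The part of these shifts in the granulosa calls was not tested.

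Whether the BPS effect differed between the cell types was tested directly, as the Sertoli effect minus the granulosa effect over the 12 libraries. Star was called, with a difference of -0.18 (SE 0.038, limma adjusted p = 0.0221), as 1 of the 8 tested genes, where 1.28% of all genes were called. This call was lost without Sertoli vehicle replicate 2 (adjusted p = 0.0576), Sertoli BPS replicates 1 or 2 (0.0583 and 0.0539), granulosa vehicle replicate 1 (0.0728) or granulosa BPS replicate 1 (0.0675). Hsd17b1 had a difference of 0.26 (SE 0.070, adjusted p = 0.0769) and Fdx1 of 0.17 (SE 0.047, adjusted p = 0.0774), neither of them called. Without Sertoli BPS replicate 3 the Hsd17b1 difference was 0.33 and was called (adjusted p = 0.00776). Tspo (-0.06, adjusted p = 0.575), Cyp11a1 (-0.10, 0.56), Scarb1 (0.00, 0.991), Srd5a1 (0.17, 0.686) and Hsd3b1 (0.11, 95% interval -0.60 to 0.83, 0.925) were not called either. The fall of Hsd3b1 in granulosa cells was therefore not shown to differ from Sertoli cells, where the gene was close to 0.

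Levels of different genes can be compared only per length, so CPM were divided by the kilobases of annotated exon. All GENCODE exons of a gene were merged for this. The annotation used for counting was not given, so the order holds for these lengths only. In granulosa cells with BPS the order was Cyp11a1 (328 ± 5.60 CPM per kb), Hsd3b1 (259 ± 7.42), Tspo (100.4 ± 4.30), Hsd17b1 (96.1 ± 2.76), Scarb1 (78.7 ± 3.21), Fdx1 (52.1 ± 0.540), Star (39.5 ± 0.437) and Srd5a1 (3.44 ± 0.519). Of these, the libraries of Tspo (95.7 to 104.2 CPM per kb) and Hsd17b1 (93.6 to 99.1) overlapped. With vehicle Hsd3b1 (309 ± 22.3 CPM per kb) and Cyp11a1 (307 ± 16.6) overlapped at the top, followed by Hsd17b1 (104 ± 0.962) and Tspo (91.1 ± 2.31). In Sertoli cells Tspo led with 217 ± 3.62 CPM per kb with BPS and 206 ± 0.499 with vehicle. Scarb1 came next with 73.4 and 78.4, Star with 40.6 and 44.5 and Fdx1 with 26.8 and 24.7 CPM per kb for BPS and vehicle. Cyp11a1 and Hsd17b1 stood between 6.69 and 7.42 CPM per kb on average in the Sertoli groups. The delivery genes were thus at the top of the order in Sertoli cells, and the enzymes Cyp11a1 and Hsd3b1 were at the top in granulosa cells.

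**Figure D3:**
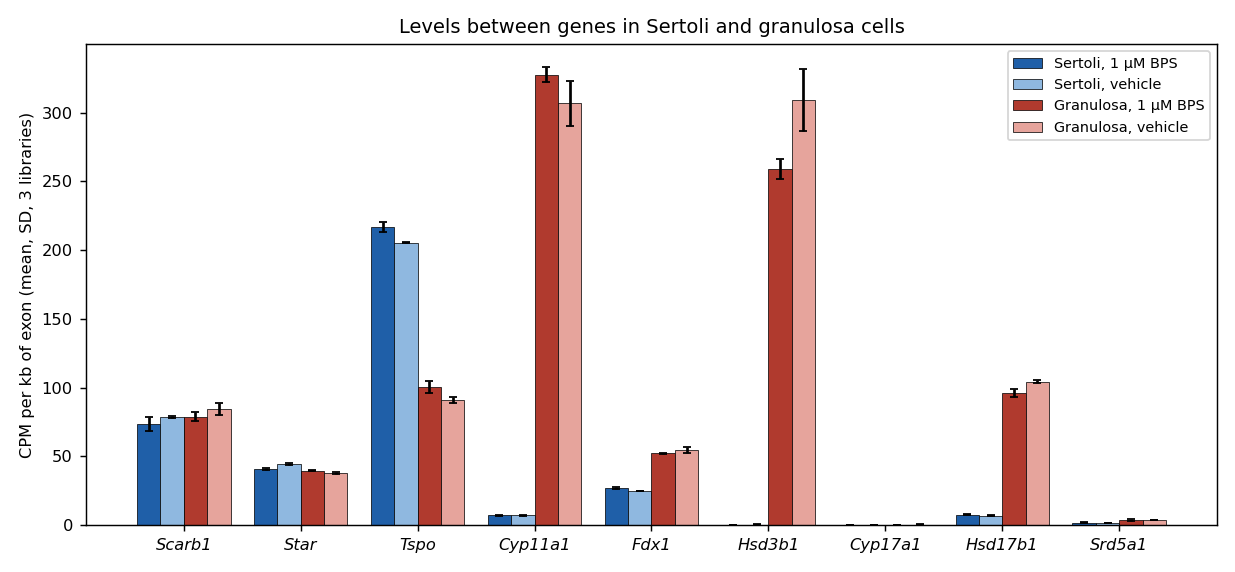
Mean CPM per kilobase of exon of the 9 genes in the 4 somatic groups, with the SD over 3 libraries as whiskers and the axis starting at 0. Tspo is the tallest bar of the Sertoli groups (217 with BPS, 206 with vehicle), and Cyp11a1 and Hsd3b1 are the tallest of the granulosa groups (328 and 259 with BPS, 307 and 309 with vehicle).

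The rest of the pathway was described with lists of related genes, also chosen with earlier results known. For the BPS counts of every list below, 5.24% of all genes were called in Sertoli and 2.6% in granulosa cells. At an unadjusted p under 0.05 there were 3425 of all 15648 genes in Sertoli and 2412 of all 15712 in granulosa cells. Of 15 cholesterol delivery genes, all tested, Scp2 was called higher and Soat1 and Star lower with BPS in Sertoli cells, and only Tspo, higher, in granulosa cells. Scp2, a sterol carrier, had 75.1 ± 1.65 CPM with BPS and 68.4 ± 1.58 CPM with vehicle (log2 difference 0.13, limma adjusted p = 0.0465). Soat1, which esterifies cholesterol for storage, had 592 ± 10.5 and 672 ± 56.7 CPM (-0.18, adjusted p = 0.025). The Scp2 call was lost under both rescalings and in 5 of the 6 fits that left out a library, and the Soat1 call in 4 of the 6. The list's median difference was 0.01 in Sertoli and 0.00 in granulosa cells, against 0.01 and 0.02 over all genes.

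Between the cell types with vehicle, 10 of these 15 genes were higher and 4 lower in Sertoli cells, and with BPS 9 and 4. For this and the lists that follow, 38.1% of all genes were higher and 40.6% lower with vehicle, and 38.3% and 41% with BPS. Stard4, a cytosolic sterol carrier, had 90.3 CPM in Sertoli and 27.3 CPM in granulosa cells with vehicle, and Nceh1, a cholesteryl ester hydrolase, 159 and 74.7 CPM. Stard5 had 19.1 CPM in Sertoli and 46.8 CPM in granulosa cells (-1.29), Scp2 68.4 and 98.1 CPM (-0.52) and Npc1, the lysosomal cholesterol exporter, 64.4 and 77.6 CPM (-0.27). The list's median difference was 0.44 with vehicle and 0.46 with BPS, against -0.03 over all genes in each.

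Of 17 steroid synthesis enzymes, 15 had a row. In Sertoli cells limma called 0 of the 9 tested with BPS, limma-voom also 0, and 2 had an unadjusted p under 0.05. In granulosa cells only Hsd3b1 and Hsd17b1 of the 10 tested were called. With vehicle, 5 of 11 were higher and 6 lower in Sertoli cells, with a median of -0.35, and with BPS 4 and 6 of 10, with a median of -0.64. Of these genes 3 with vehicle (Hsd3b1, Srd5a2 and Hsd17b3) and 2 with BPS (Hsd3b1 and Srd5a2) passed the filter through 1 cell type alone and had to differ. Among the higher ones with vehicle were the dehydrogenases Hsd17b12 (212 CPM in Sertoli and 114 CPM in granulosa cells) and Hsd17b11 (45.7 and 23.9 CPM), the reductase Srd5a3 (29.7 and 22.6 CPM) and, near the limit of detection, the testicular Hsd17b3 (0.730 and 0.0098 CPM). Srd5a2, another 5-alpha-reductase, had 0.0357 CPM in Sertoli and 4.36 CPM in granulosa cells with BPS. Hsd17b11 differed in its BPS response (-0.27, adjusted p = 0.0454): it had 42.3 CPM with BPS and 45.7 CPM with vehicle in Sertoli cells, and 26.7 CPM with BPS and 23.9 CPM with vehicle in granulosa cells. That call was lost in 9 of the 12 fits that left out a library, with adjusted p-values up to 0.126.

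Of 9 electron donors, 8 had a row and were tested. With BPS limma and limma-voom called 0 of the 8 in Sertoli cells and 0 in granulosa cells, with 1 at an unadjusted p under 0.05 in each. Between the cell types 3 were higher and 4 lower in Sertoli cells, with vehicle and with BPS. The higher ones were Por, the reductase of microsomal P450 enzymes, with 251 CPM in Sertoli and 145 CPM in granulosa cells (0.78, adjusted p = 2.67e-10), the cytochrome b5 reductase Cyb5r3 with 405 and 255 CPM and Cyb5b, a cytochrome b5 of the outer mitochondrial membrane, with 221 and 186 CPM. The mitochondrial pair of Fdx1 and its reductase Fdxr (73.1 and 112 CPM, -0.62, adjusted p = 4.12e-09) were lower, and so were the microsomal cytochrome b5 Cyb5a (199 and 264 CPM) and H6pd, which supplies NADPH inside the endoplasmic reticulum (99.1 and 127 CPM).

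Of 13 regulators of these genes, limma and limma-voom called 0 of the 10 tested with BPS in Sertoli cells, 1 of them at an unadjusted p under 0.05. In granulosa cells 1 of 12 was called, Runx2, a transcription factor of ovulating follicles, with 32.0 ± 1.16 CPM with BPS and 36.8 ± 1.76 CPM with vehicle (-0.20, adjusted p = 0.0229), a call lost in 3 of the 6 fits that left out a library. Nr5a1, the steroidogenic factor that binds many of these genes, had 129 CPM in Sertoli and 134 CPM in granulosa cells with vehicle (-0.06, adjusted p = 0.138), and Gata4 had 350 and 347 CPM (0.01, adjusted p = 0.746). Nr5a2, its relative in granulosa cells, had 0.347 CPM in Sertoli and 164 CPM in granulosa cells, and Foxl2, the ovarian fate factor, 0.299 and 140.3 CPM. Nr0b1, a repressor of steroidogenic factors, had 9.86 and 0.300 CPM. Cebpb was lower in Sertoli cells (70.7 and 155 CPM), Gata6 (80.5 and 59.4 CPM), Fshr (3.93 and 0.451 CPM) and Crem (11.96 and 10.3 CPM) were higher, and Lhcgr, the luteinizing hormone receptor, had 0 and 2.97 CPM. In all, 5 regulators were higher and 6 lower in Sertoli cells with vehicle, and 4 and 6 with BPS, and 5 of the 13 tested (Nr5a2, Foxl2, Lhcgr, Nr0b1 and Fshr) passed the filter through 1 cell type alone and had to differ.

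Of 11 genes of steroid inactivation, 7 had a row. With BPS limma and limma-voom called 0 of the 3 tested in Sertoli cells and 0 of the 5 in granulosa cells, with 1 and 2 at an unadjusted p under 0.05. Akr1c14, a 3-alpha-hydroxysteroid dehydrogenase, had 4.68 CPM in Sertoli and 363 CPM in granulosa cells with vehicle (-6.27, adjusted p = 9.95e-17), and Hsd11b2, which inactivates glucocorticoids, 0.332 and 19.5 CPM. Cyp1b1 (45.2 and 105 CPM) and Cyp7b1 (0.220 and 6.86 CPM) were also lower in Sertoli cells. The counts were 1 higher and 4 lower with vehicle and with BPS, and Hsd11b2 and Cyp7b1 passed the filter through granulosa cells alone and had to differ. Of 4 adrenal genes only Cyp11b1 had a row, with 0.0367 CPM in Sertoli and 1.06 CPM in granulosa cells, and it was not called for BPS in granulosa cells (limma and limma-voom 0 of 1, 0 at an unadjusted p under 0.05).

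Across all 14 groups the somatic cells held the highest levels of every gene except Srd5a1 and Cyp17a1, as the plot of the 14 groups shows. Cyp17a1 was highest in granulosa cells (mean 0.506 CPM with BPS and 0.553 CPM with vehicle). Its Sertoli libraries (0.0233 and 0.0380 CPM) overlapped with those of derived vehicle PGCLCs (0.0470 CPM). Scarb1 ranged from 38.0 to 53 CPM in the 12 PGCLC libraries and from 59.95 to 86.5 CPM in the 18 iPSC libraries, and Star from 4.10 to 7.34 and from 8.21 to 11.4 CPM. Tspo ranged from 31.0 to 37.9 CPM in PGCLCs and from 20.7 to 35.7 CPM in iPSCs. Cyp11a1 stood between 0.896 and 2.81 CPM in PGCLCs and between 1.33 and 2.52 CPM in iPSCs, and Fdx1 between 9.88 and 15.1 and between 8.66 and 14.8 CPM. Hsd17b1 was below 1 CPM in both. Hsd3b1 had 0 reads in all 6 iPSC groups, both derived PGCLC groups and the directly exposed BPS group, which allows up to 0.0251 to 0.0342 CPM per group by the limit of 3 reads, and 7 reads in the directly exposed vehicle PGCLCs. Srd5a1 had its highest levels in iPSCs (10.3 to 17.1 CPM), above PGCLCs (4.90 to 7.91 CPM), granulosa cells (7.62 to 10.3 CPM) and Sertoli cells (3.77 to 4.78 CPM). When the 14 group means of a gene were put in order, many neighbours overlapped in their libraries: 7 of the 13 neighbouring pairs for Scarb1, 6 for Star, 9 for Tspo, 11 for Cyp11a1, 8 for Fdx1, 10 for Hsd3b1, 12 for Cyp17a1, 9 for Hsd17b1 and 8 for Srd5a1.

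**Figure D4:**
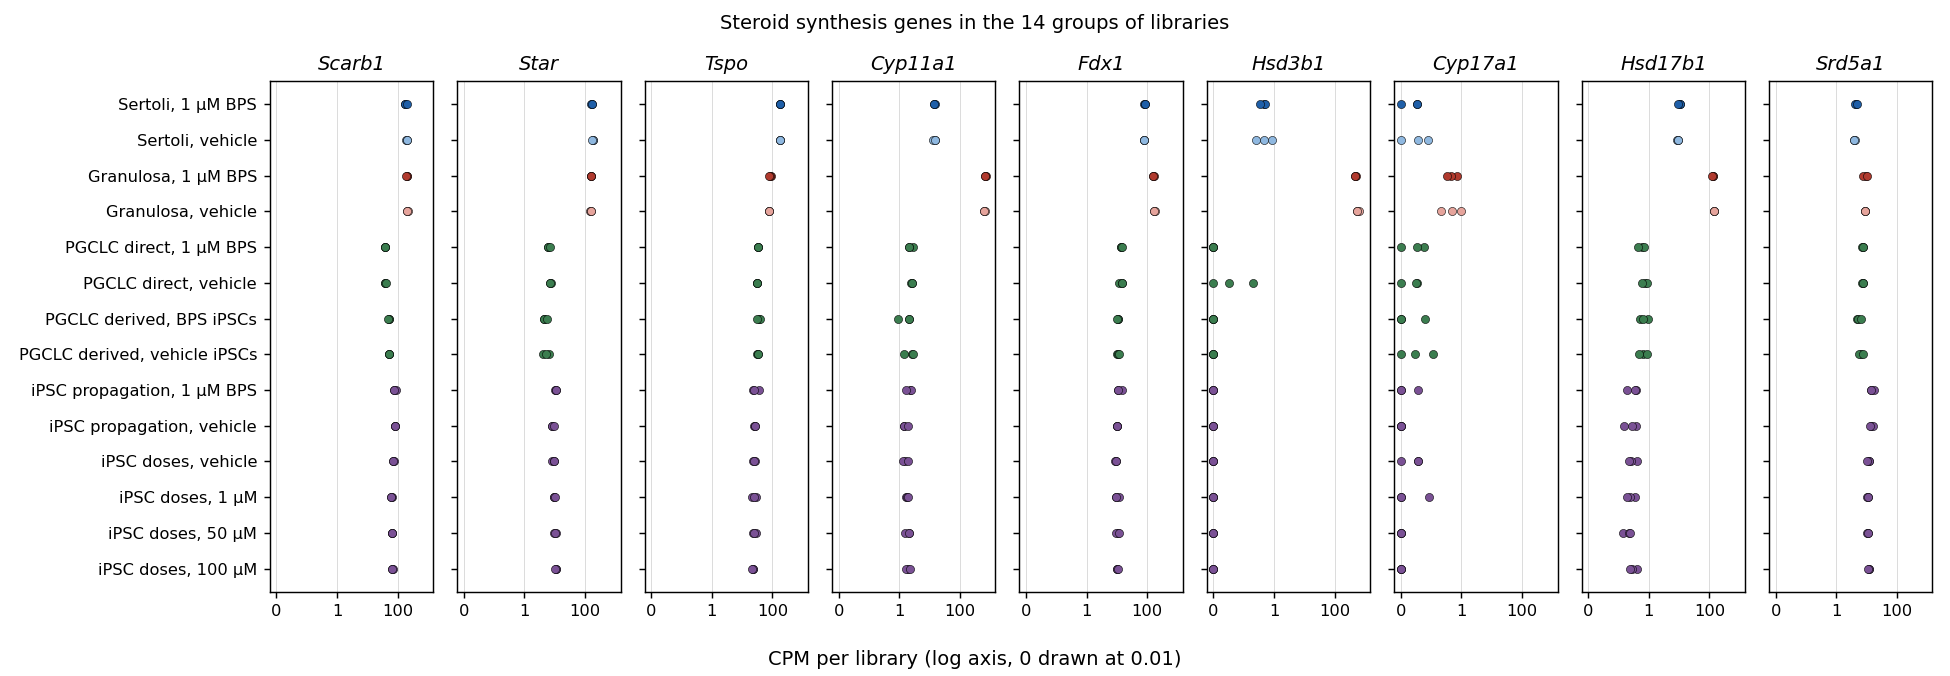
CPM of the 9 genes in each library of the 14 groups, on a logarithmic axis where 0 is drawn at 0.01. The somatic groups at the top of each panel hold the highest values of every gene but Srd5a1 and Cyp17a1, and Hsd3b1 lies at 0 in all iPSC libraries. For Cyp17a1 only the granulosa groups are highest.

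The dose series in iPSCs asked whether responses grow with the dose. Of the 9 genes, 6 were tested and Hsd3b1, Cyp17a1 and Hsd17b1 were too low. Scarb1 had 72.3, 73.9 and 71.6 CPM with vehicle, 66.6, 59.95 and 62.6 CPM at 1 µM, 64.99, 66.4 and 64.8 CPM at 50 µM and 64.5, 67.9 and 65.3 CPM at 100 µM. Every BPS library lay below every vehicle library, and the doses overlapped each other. Scarb1 fell at 1 µM (log2 difference -0.20, SE 0.049, limma adjusted p = 0.0142), at 50 µM (-0.15, adjusted p = 0.0296) and at 100 µM (-0.14, adjusted p = 0.0368). Star had 8.21, 9.46 and 9.65 CPM with vehicle, 9.80, 9.76 and 9.97 CPM at 1 µM, 9.77, 10.7 and 10.4 CPM at 50 µM and 10.7, 10.7 and 10.5 CPM at 100 µM. Vehicle replicate 1 was the lowest library, and every BPS library lay above all 3 vehicle libraries. Star rose at 100 µM (0.23, SE 0.079, adjusted p = 0.0345) and was not called at 1 µM (0.12, adjusted p = 0.392) or 50 µM (0.18, adjusted p = 0.101).

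**Figure D5:**
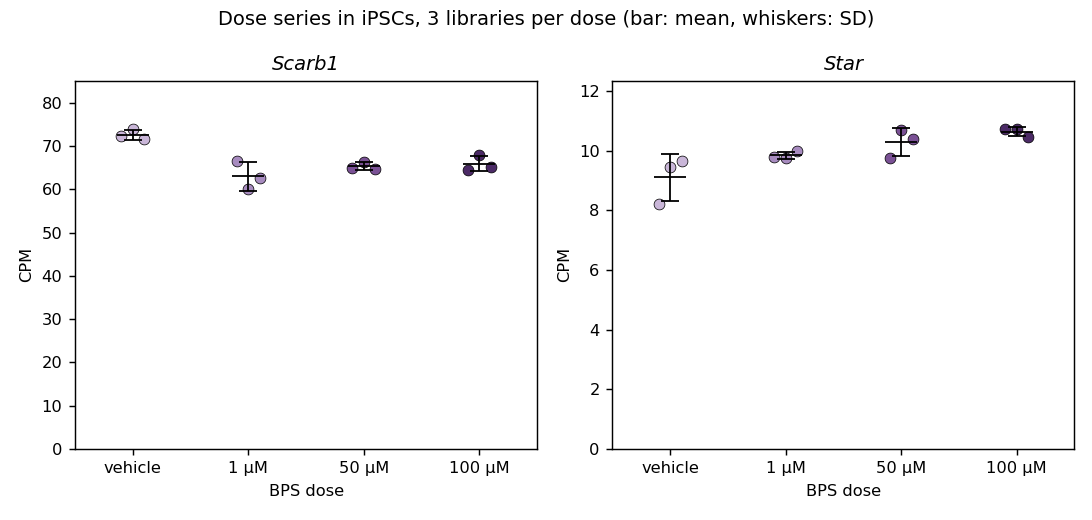
CPM of Scarb1 and Star in each iPSC library of the dose series, with 3 libraries per dose, the mean as a bar and the SD as whiskers, on axes that start at 0. Scarb1 is at 71.6 to 73.9 CPM with vehicle and at 59.95 to 67.9 CPM with BPS, and Star is at 8.21 to 9.65 CPM with vehicle and at 9.76 to 10.7 CPM with BPS.

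Marker lists moved in the same libraries. The PGCLC list summed to 179 to 182 CPM with vehicle, 142 to 153 CPM at 1 µM, 137 to 144 CPM at 50 µM and 139 to 142 CPM at 100 µM. The macrophage list summed to 13.7 to 16.4, 18.1 to 18.8, 20.6 to 22.9 and 21.4 to 21.8 CPM in the same order, with 6 of its 7 genes under 0.5 CPM in every library, and the germ cell list to 21.5 to 21.6, 21.9 to 26.7, 22.2 to 24.7 and 21.7 to 23.0 CPM. These 3 lists overlapped with vehicle at no dose, and their part in the Scarb1 and Star results was not tested. More lists were summed, and the share of all genes without overlap was not counted. The Sertoli and granulosa lists overlapped with vehicle at every dose. The Leydig list overlapped at 50 and 100 µM but not at 1 µM (2.34 to 2.76 CPM, against 2.81 to 3.00 CPM with vehicle). At 100 µM the iPSC markers (3566 to 3602 CPM, against 3606 to 3686 CPM with vehicle) and the endothelial list (74.1 to 79.97 CPM, against 85.5 to 92.2 CPM with vehicle) did not overlap either, and at 1 µM the stroma, theca and peritubular list (12.5 to 13.9 CPM, against 9.29 to 11.3 CPM with vehicle).

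These doses were compared with the same 3 vehicle libraries, so their calls are not independent. The calls of the 6 genes were 1 at 1 µM, 1 at 50 µM and 2 at 100 µM, where 8.54%, 26.4% and 30.7% of all genes were called. Scarb1 was not called at 1 µM without vehicle replicates 1 or 2 or BPS replicate 3 (adjusted p = 0.0527, 0.0703 and 0.0593). At 50 µM it was not called without vehicle replicates 1, 2 or 3 or BPS replicates 1 or 3 (0.0748, 0.106, 0.0514, 0.0619 and 0.0854), and at 100 µM without vehicle replicates 1, 2 or 3 or BPS replicates 1 or 3 (0.0853, 0.122, 0.0608, 0.11 and 0.0958). Star at 100 µM was not called without BPS replicates 1, 2 or 3 (0.0833, 0.0911 and 0.0637), and without vehicle replicate 1 its difference was 0.15 (adjusted p = 0.19).

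In the other 1 µM comparisons none of the 9 genes was called. In directly exposed PGCLCs limma and limma-voom called 0 of 7 genes, where limma called 26.6% of all genes. At an unadjusted p under 0.05 there was 1 of the 7, against 6261 of all 16342 genes. The 1 was Tspo, with 32.6, 34.5 and 33.3 CPM with BPS and 31.6, 31.0 and 31.0 CPM with vehicle (0.10, adjusted p = 0.112). Star had 5.91, 6.13 and 7.11 CPM with BPS and 7.18, 7.34 and 7.18 CPM with vehicle, with no overlap (-0.18, adjusted p = 0.16). In propagation iPSCs limma and limma-voom called 0 of 6 genes, where limma called 0.0128% of all genes. Where 1744 of all 15572 genes had an unadjusted p under 0.05, 1 of these 6 had. That was Star, with 10.1, 11.1 and 11.4 CPM with BPS and 8.39, 8.37 and 9.51 CPM with vehicle (0.31, SE 0.096, adjusted p = 0.383). Tspo had 23.7, 35.7 and 25.3 CPM with BPS and 24.1, 26.7 and 27.2 CPM with vehicle, BPS replicate 2 standing apart. Scarb1, which fell in the dose series, had 80.4 ± 5.45 CPM with BPS and 82.2 ± 2.50 CPM with vehicle (SD, n = 3 each). Its libraries overlapped between these groups. In PGCLCs derived from these iPSCs limma and limma-voom called 0 of 7 genes, 0 had an unadjusted p under 0.05, and 0% of all genes were called. Of all 16268 genes there, 2578 had an unadjusted p under 0.05. Star had 4.33, 4.46 and 5.52 CPM in PGCLCs from BPS-exposed iPSCs and 6.41, 4.10 and 5.28 CPM in those from vehicle iPSCs, and the groups overlapped.

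Between derived PGCLCs and iPSCs of the vehicle cultures 4 of the 6 tested genes were called, and 75% of all genes were. Scarb1 had 50.4, 50.3 and 53 CPM in derived PGCLCs and 85.1, 81.1 and 80.5 CPM in iPSCs, with no overlap (log2 difference -0.68, SE 0.044, limma adjusted p = 1.48e-06). Star fell by 0.75 on the log2 scale (SE 0.161, adjusted p = 0.00236), and Srd5a1 had 6.57 ± 1.03 CPM in derived PGCLCs and 14.7 ± 1.84 CPM in iPSCs (SD, n = 3 each; -1.17, adjusted p = 6.28e-05). Tspo was higher in PGCLCs (32.8 ± 1.78 and 26.0 ± 1.67 CPM, 0.33, adjusted p = 0.00181). Cyp11a1 (0.45, adjusted p = 0.147) and Fdx1 (0.15, adjusted p = 0.126) were not called.

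Counts for the pathway lists were read against the share of all genes called, 8.54% at 1 µM, 26.4% at 50 µM and 30.7% at 100 µM in iPSCs. Of the 15 delivery genes 1, 2 and 4 were higher at these doses, and Scarb1 was the 1 lower at each dose. Of the 7 tested synthesis enzymes 1 was higher at each dose, and of 5 inactivation genes 1, 2 and 2 were higher. The electron donors and regulators had calls at the upper doses: 1 of 8 donors was lower at 50 and at 100 µM, 2 of 7 regulators were lower at 50 µM, and 3 were higher and 1 lower at 100 µM. In directly exposed PGCLCs, where 26.6% of all genes were called, 4 of 15 delivery genes, 1 of 8 enzymes, 2 of 8 electron donors and 1 of 5 inactivation genes were higher and none was lower, and of 8 regulators 3 were higher and 1 lower.

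The genes most like each member were found by Pearson's correlation of log2 CPM over the 42 libraries among 16619 genes. The libraries share 14 groups and 4 cell types, so these values describe the pattern over cell types and carry no p-value. Cyp11a1 was closest to Hsd3b1 (r = 0.989) and Gm21680 (0.989), and Hsd3b1 to Gm21663 (0.994) and 5031410I06Rik (0.990). Star was closest to Amhr2, the receptor for anti-Müllerian hormone (0.990), and Cdkn2c (0.990), Scarb1 to P3h1 (0.986) and Lamb2 (0.984), and Tspo to Tmed10-ps (0.992) and Acsl5 (0.991). Fdx1 was closest to Serpinb6a (0.995) and Ifi204 (0.992), Hsd17b1 to Csgalnact2 (0.990) and Ext2 (0.985), and Srd5a1 to Zfp277 (0.955) and Tnfrsf1b (0.949).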

How the data were processed

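RNA of 42 libraries was sequenced with a strand-specific kit and, per the study's methods, aligned to mm10 and counted with Rsubread. The authors normalized the counts together with edgeR (TMM scaling) and deposited log2 CPM with a small added value; the table holds 22186 genes. The added value was recovered as 0.0313 CPM, and after it was undone 99.9% of the values of the worst library were whole reads to within 0.05 reads, with library totals of 26693847 to 44524376 reads and scaling factors of 0.8775 to 1.1077. The annotation used for counting was not given in the sources used here. No 2 libraries of a group were alike within sampling noise (lowest chi-square per gene 2.09). Granulosa vehicle replicate 2 had 19.6 and 27.5 against the other libraries of its group, which had 3.83 between them. Propagation iPSC BPS replicate 2 had 64.0 and 61.6, where the others had 6.45. Replicate 1 of the vehicle PGCLCs of the direct exposure had 45.2 and 42.0, where the others had 2.09.

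Groups came from the sample titles. Tests used limma 3.58.1 (lmFit and eBayes with a trend) in R 4.3.3 on the deposited log2 values, for genes with at least 0.5 CPM in at least 3 libraries, with Benjamini-Hochberg adjustment over all of them and a threshold of 0.05. Each comparison was fitted on its own 6 libraries, the dose series and the difference in BPS effect on 12. Fold differences are ratios of mean CPM, and log2 differences of low genes are understated by the added value. All 10 genes, the genes of each pathway list with the smallest adjusted p (up to 4 per direction) and the 2 genes most like each member were named. The members and lists were chosen with earlier results of these data known. Nr5a1 and Gata4 were named in addition, after their values were seen. A few genes that this rule names are not reported here. Start regions came from RefSeq (GRCm38.p6), and shared sequence was counted in stretches of 50 bases. Alternatives were an added CPM of 0.25 or 1, no filter, a filter of 5 CPM, scaling by median ratios or upper quartile, a replicate block, limma-voom on the recovered reads, all 42 libraries in 1 fit, only the 6 libraries compared for doses, and leaving out each library. The limma step was tested on simulated data. Plots and tables used Python 3.11.15, pandas 2.3.3, numpy 2.4.6, scipy 1.17.1 and matplotlib 3.10.9. The limit for 0 reads is 3 reads over the group and covers counting error only.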

Additional observations from a re-analysis of the deposited data

Results flagged for a closer look

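The effect of 1 µM BPS differed between Sertoli and granulosa cells for Star, with a log2 difference of -0.1814 between the effects (limma adjusted p = 0.0221), and for Hsd17b11 with -0.2734 (adjusted p = 0.0454). In that test 1.28% of all genes were called. With 1 library left out, the Star call was lost in 5 of 12 fits and the Hsd17b11 call in 9. Both were lost in the fit of all 42 libraries, and Hsd17b11 also without a filter or with a replicate block. In 7 further pairs of 1 µM comparisons every BPS library of 1 cell type lay on the opposite side of its vehicle libraries from those of the other, and these differences were not tested. The pairs were picked because their libraries separated in opposite directions, and the share of all genes that did so was not counted. Their number is therefore no result about these genes. For Star the effect in Sertoli cells minus that in iPSCs of the dose series was -0.2457, and minus that in propagation iPSCs -0.4434. The Star effect in granulosa cells minus that in directly exposed PGCLCs was 0.2348. The Star effect in directly exposed PGCLCs minus that in iPSCs of the dose series was -0.299, and minus that in propagation iPSCs -0.4967. For Fdx1 the effect in granulosa cells minus that in iPSCs of the dose series was -0.2103, and minus that in propagation iPSCs -0.3457. Groups of 3 libraries are too small to say whether a single library is an outlier.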

How the results depend on the processing

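Of 1711 values for single genes under an alternative (114 pairs of gene and comparison), 1596 kept their direction and their side of the threshold, 92 lost a call, 5 gained one and 18 changed sign. With limma-voom all 114 kept both. The fit of all 42 libraries shares 1 spread over cell types, and there the count of called genes was 0 instead of 1 in Sertoli cells, 0 instead of 3 in granulosa cells, 0 instead of 1 for the difference between them, 1 instead of 2 at 100 µM, 1 instead of 0 in directly exposed PGCLCs and 2 instead of 0 in propagation iPSCs. Without a filter 1 gene, Hsd3b1, was called in granulosa cells. With upper-quartile scaling 0 genes were called at 50 µM and 1 at 100 µM, and with only the 6 libraries compared 0 at 1 µM; the cause was not tested. Leaving out 1 library gave 0 to 2 calls in Sertoli cells, 1 to 2 in granulosa cells, 0 to 2 for their difference, 0 to 1 at 1 µM, 0 to 2 at 50 µM and 0 to 1 at 100 µM. The 18 sign changes fell on 5 pairs of gene and comparison. Srd5a1 in granulosa cells was -0.0025 by median ratios, -0.0026 by upper quartile and -0.077 to 0.14 with a library left out. Star between the BPS-exposed cell types was -0.060 with upper-quartile scaling (limma adjusted p = 0.0523). With a library left out, Cyp11a1 in Sertoli cells ranged over -0.076 to 0.037. In the difference of effects, Hsd3b1 then ranged over -0.28 to 0.54 and Scarb1 over -0.061 to 0.038.

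The number of all genes called ranged from 207 to 1298 in Sertoli cells (820 as reported) and from 38 to 452 in granulosa cells (409 as reported) over the settings. With a library left out it ranged from 43 to 1239 and from 134 to 402. In propagation iPSCs it ranged from 0 to 2046 over the settings and from 0 to 1484 with a library left out (2 as reported), and in derived PGCLCs from 0 to 721 and at 0 (0 as reported). The share of calls that were higher with BPS was 71.7% in Sertoli cells (56.7% by median ratios, 40.4% by upper quartile) and 74.8% in granulosa cells (53.96% and 54.8%). Upper-quartile scaling shifted the median of all genes by -0.10 between the BPS-exposed Sertoli and granulosa cells. Libraries with the same replicate number did not deviate together, so the numbers do not pair them, and a replicate block changed 2 of the 114 calls, with Hsd17b1 in granulosa cells at an adjusted p of 0.0731 and Hsd17b11 in the difference of effects at 0.0606. Cyp17a1 in all groups and Hsd3b1 outside granulosa cells did not pass the filter for a BPS comparison and were not tested there.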
